A study of Mus musculus with 2 samples.

Results

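The 10 major urinary protein (Mup) genes examined here were *Mup1*, *Mup2*, *Mup3*, *Mup7*, *Mup10*, *Mup11*, *Mup12*, *Mup17*, *Mup20* and *Mup21*. They were taken by their symbols from a table of 34745 genes, and each symbol matched 1 gene. Poly(A) RNA was sequenced from regenerating liver of male mice, 8 to 10 weeks old, at day 3 after 2/3 partial hepatectomy (PH), in which 70% of the liver is removed. The KO library came from miR-182-5pKO mice, labelled miRNA-182 KO, which carry the knockout on 1 allele only and keep the other. The WT library came from wild-type mice, and both genotypes underwent PH. Each genotype had 1 library. The number of mice behind each library and the strain of the KO line are not given in the sources used here. With 1 library per genotype no difference between the genotypes could be tested, and every difference below compares 2 libraries.

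Major urinary proteins are small secreted lipocalins, proteins that hold lipid-like molecules in a barrel-shaped pocket. The adult male mouse liver makes them in large amounts, and they pass through the blood into the urine, where they carry volatile pheromones. Their transcription depends on the pulses of growth hormone seen in males, which act through the transcription factor STAT5. The genes stand in a single cluster on chromosome 4. Genes in the central part of the cluster are near-identical copies, here *Mup1*, *Mup2*, *Mup7*, *Mup10*, *Mup11*, *Mup12* and *Mup17*. Genes towards its edges have diverged further, here *Mup3*, *Mup20* and *Mup21*. *Mup20* encodes darcin, a protein of male urine that itself acts as a pheromone. The authors' annotation gave all 10 genes the term pheromone binding.

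In the annotation of the deposited table, which has the coordinates of GRCm38 for all 10 genes, the members lay on the minus strand of chromosome 4 between 60066469 and 62150863. *Mup7* (ENSMUSG00000073842) was the first of them in that order, and *Mup20* (ENSMUSG00000078672, chr4:62050234-62054158), *Mup3* (ENSMUSG00000066154, chr4:62083476-62087342) and *Mup21* (ENSMUSG00000066153, chr4:62147932-62150863) were the last 3. The main transcript of each member had 6 coding exons, with 540 to 552 coding bases. The main transcripts of the 7 central members were 98.3% to 99.7% identical to each other over 21 pairs, with 3 to 16 mismatched bases. *Mup20* was 90.6% to 91.2% identical to the central members, and *Mup3* and *Mup21* were 86.6% to 87.6% identical to them. *Mup3* and *Mup21* were 96.1% identical to each other.

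A coding stretch of 60 bases in exon 2 gives an example of bases that differ between *Mup20* and other members with reads. It runs 5′ to 3′ on the coding strand, and capitals mark the bases that differ from *Mup20*. The stretch lies at chr4:62053524-62053583 in *Mup20*, chr4:60069777-60069836 in *Mup7*, chr4:60661774-60661833 in *Mup11*, chr4:61595237-61595296 in *Mup17*, chr4:62086844-62086903 in *Mup3* and chr4:62150239-62150298 in *Mup21* (GRCm38, minus strand).
Mup20: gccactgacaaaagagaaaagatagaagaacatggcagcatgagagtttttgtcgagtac
Mup7: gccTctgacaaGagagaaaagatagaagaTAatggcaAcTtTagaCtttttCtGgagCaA
Mup11: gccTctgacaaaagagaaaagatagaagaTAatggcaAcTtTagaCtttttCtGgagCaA
Mup17: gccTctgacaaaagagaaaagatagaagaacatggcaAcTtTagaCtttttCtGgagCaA
Mup3: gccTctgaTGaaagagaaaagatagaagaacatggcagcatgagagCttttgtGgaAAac
Mup21: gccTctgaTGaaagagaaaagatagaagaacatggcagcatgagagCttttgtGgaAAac
*Mup7* differed from *Mup20* at 12 of the 60 bases, *Mup11* at 11, *Mup17* at 9, and *Mup3* and *Mup21* each at 7. The stretch is an illustration and does not stand for the whole transcripts. Over the main transcripts, *Mup7* differed from *Mup20* at 87 of 922 aligned bases, and *Mup3* differed from it at 94 of 842.

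**Figure D1:**
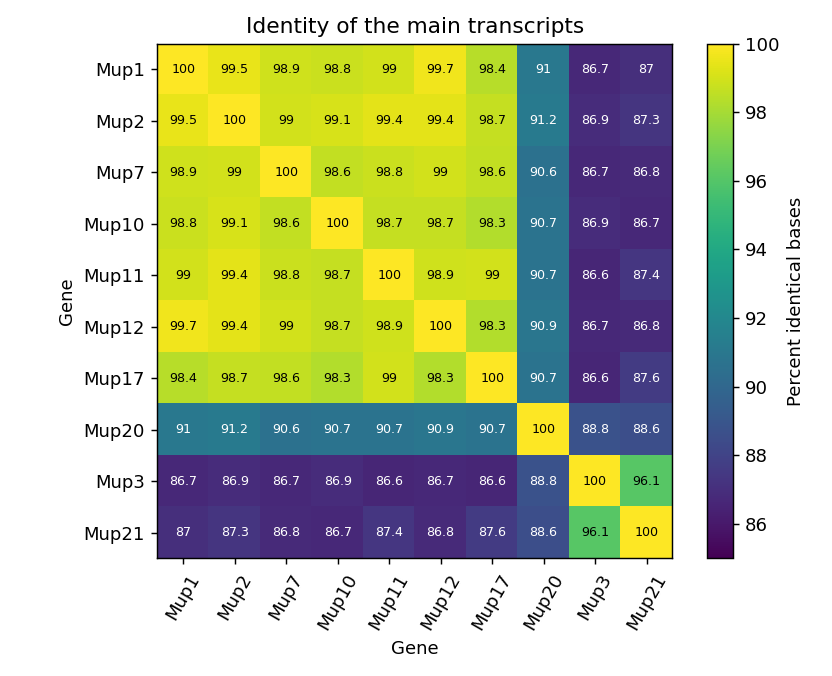
Identity of the main transcripts of the 10 genes, in percent of identical bases over the aligned bases (both axes are genes, and the colour runs from 85% to 100%). The central members form a block at 98.3% to 99.7%, *Mup20* stands apart from them at 90.6% to 91.2%, and *Mup3* and *Mup21* pair at 96.1%.

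How far reads can be told apart follows from these sequences. The main transcript of each gene was read as overlapping words of 51 bases. The share of words found in no other gene was 84.9% for *Mup3*, 81.2% for *Mup21* and 49.9% for *Mup20*. Most of what *Mup20* shared, 47.8% of its words, matched the pseudogene *Mup-ps19*, whose 519 bases are identical to *Mup20*, and 4.21% matched a Mup gene other than a pseudogene. Among the central members the share of words found in no other gene was 22.2% for *Mup17*, 15% for *Mup12*, 13.8% for *Mup10*, 11.1% for *Mup11*, 5.47% for *Mup1*, 3.76% for *Mup7* and 0.0% for *Mup2*. The split of reads among the central members is therefore uncertain, and their sum is given beside each gene.

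Read depth was nearly equal, with 13247497 counts for KO and 13163348 for WT. Transcripts of the 13 mitochondrial protein-coding genes made up 51.7% of them in KO and 31.0% in WT. Counts were scaled with edgeR's TMM method, and levels are in TMM-scaled CPM, the counts of a gene per 1e+06 scaled counts of its library. A total of 13561 genes had at least 10 counts over the pair of libraries, and the median of their log2 fold changes was 0.00 with TMM and -0.60 when scaled by total counts. Intervals are 95% and cover counting error only.

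Summed over the 10 genes, Mup reads numbered 66802 for KO and 71944 for WT. They were 0.504% of all counts in KO (0.50% to 0.508%, exact Clopper-Pearson) and 0.547% in WT (0.543% to 0.551%). After TMM scaling the sum stood at 6212 CPM in KO and 4437 CPM in WT, a log2 fold change of 0.49 (0.47 to 0.50). With total counts it was -0.12, which is above that scaling's median of -0.60. The direction of the sum thus depended on the scaling. With 2 libraries, TMM and total counts differ by nearly the same shift, 0.60 on the log2 scale, for every gene. That the sum lay above the median of all genes with both is therefore 1 observation, not 2. The same holds for each gene or list set against the 2 medians below. In bulk liver, fewer cells of a type and less RNA per cell cannot be told apart.

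Single members differed in opposite directions. *Mup20* was lower in the KO library, while *Mup3*, *Mup21* and all 5 central members with at least 10 counts were higher there. *Mup20* took 35990 reads in WT and 18812 in KO, the largest difference within the family in unscaled reads. On the TMM scale *Mup3* differed more, by 1052 CPM, against -470 CPM for *Mup20*. The TMM-scaled level of *Mup20* was 2220 CPM in WT and 1749 CPM in KO, a log2 fold change of -0.34 (-0.37 to -0.32). With total counts it was -0.95, below that scaling's median of -0.60. The remaining 9 genes together had 35954 reads in WT and 47990 in KO, a log2 fold change of 1.01 (0.99 to 1.03). The sum without *Mup20* was 2217 CPM in WT and 4462 CPM in KO.

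Of the 8 members that reached 10 counts, 3 were at least 2-fold higher in the KO library and 0 were at least 2-fold lower. Across all 13561 genes with as many counts, 9.46% were at least 2-fold higher and 9.94% at least 2-fold lower. The 3 were *Mup21*, *Mup11* and *Mup1*. Of these, *Mup11* and *Mup1* are central members, so their place past the limit rests on the uncertain split of reads. With total counts only *Mup21* was at least 2-fold higher, with *Mup11* at 0.95 and *Mup1* at 0.80, and 4.6% of all genes were at least 2-fold higher and 26.6% at least 2-fold lower. *Mup17*, at 0.99, and *Mup12*, at 0.95, stood just under the 2-fold limit, and the intervals of both included it. The median of the 8 was 0.97, beside 0.00 for all genes. With total counts it was 0.37 beside -0.60.

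*Mup3* had the most reads of the higher genes. It took 24241 reads in KO and 19491 in WT, and its level was 2254 CPM against 1202 CPM. The log2 fold change was 0.91 (0.88 to 0.93), and 0.31 with total counts. *Mup21*, its closest relative in sequence, was the member that differed most between the libraries. It took 870 reads in KO and 267 in WT, or 80.9 CPM against 16.5 CPM, a log2 fold change of 2.29 (2.10 to 2.5). Within a library, *Mup21* reads were 0.0359 times those of *Mup3* in KO and 0.0137 times in WT, so the ratio of these paralogs differed by 1.39 on the log2 scale (1.19 to 1.59) whatever the scaling.

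The central members together had 22879 reads in KO and 16196 in WT. Their sum was 2127 CPM against 999 CPM, a log2 fold change of 1.09 (1.06 to 1.12). With total counts it was 0.49, still higher in KO. *Mup7* took 9074 reads in KO and 7570 in WT, a log2 fold change of 0.85 (0.81 to 0.90). *Mup11* took 7284 and 3737, a log2 fold change of 1.56 (1.5 to 1.61). *Mup17* took 5971 and 4527, a log2 fold change of 0.99 (0.94 to 1.05). These 3 genes held nearly all reads of the central group, and each was higher in the KO library. *Mup1* had 327 reads in KO and 186 in WT, a log2 fold change of 1.40 (1.14 to 1.67). *Mup12* had 220 and 172, a log2 fold change of 0.95 (0.65 to 1.24). *Mup2* was at the limit of counting, with 3 reads in KO and 4 in WT, a log2 fold change of 0.16 (-2.59 to 2.74). *Mup10* had 0 reads in both libraries. Its counting intervals reached 0.37 in KO and 0.245 in WT, in TMM-scaled CPM per kilobase of main transcript. *Mup10* and *Mup2* had fewer than the 10 counts required, so they are not among the genes compared with the 2-fold limit.

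**Figure D2:**
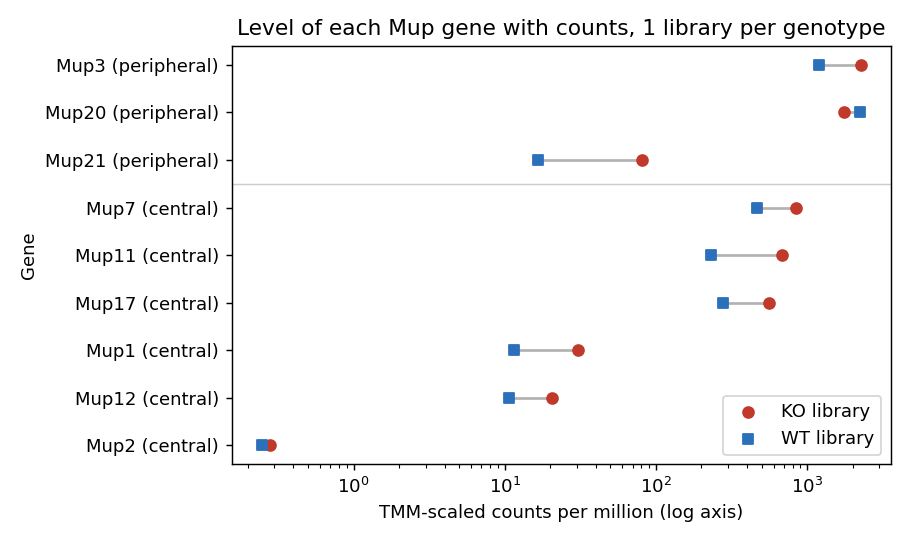
TMM-scaled CPM (log axis) of the 9 Mup genes with reads, 1 point per library and gene, with KO as circles and WT as squares, and no error bars because each genotype had 1 library. *Mup20* is the gene with WT to the right of KO (2220 against 1749), and *Mup10*, at 0 in both, is not drawn.

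Levels of different genes can be set side by side only per length. In TMM-scaled CPM per kilobase of main transcript, *Mup20* came first in WT at 2392 and *Mup3* second at 1222. In KO the order of these 2 was exchanged, with *Mup3* at 2291 and *Mup20* at 1885. Their counting intervals did not overlap in either library. *Mup7* followed at 910 in KO and 504 in WT. *Mup11* stood above *Mup17* in KO, at 728 against 599, and below it in WT, at 248 against 301. *Mup21* came next, at 119 in KO and 24.3 in WT. *Mup1* and *Mup12* could not be ordered in WT, at 12.4 (10.7 to 14.3) and 11.5 (9.81 to 13.3), and stood at 32.8 and 22.1 in KO. *Mup2* was at 0.301 in KO and 0.266 in WT, with wide intervals that overlapped. The order among the central members also rests on the uncertain split of reads among them, which the intervals do not cover.

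The authors' FPKM divide by other lengths and give another order. The length implied by count and FPKM was 928 bases for *Mup20*, equal to its main transcript, and 927 bases for *Mup17*. It was 1711 bases for *Mup7*, 1744 bases for *Mup3*, 2138 bases for *Mup11* and 2180 bases for *Mup1*, whose main transcripts have 927 to 984 bases. By FPKM, *Mup20* therefore led in both libraries, at 1530 in KO and 2946 in WT, ahead of *Mup3* at 1049 and 849. *Mup17* was ahead of *Mup7* in the same values, at 486 against 400 in KO and 371 against 336 in WT. It was also ahead of *Mup11* in both libraries, which stood at 257 in KO and 133 in WT. *Mup12* was ahead of *Mup1*, at 17.9 against 11.3 in KO and 14.1 against 6.48 in WT. The order of these central genes, and that of *Mup20* and *Mup3* in KO, thus depended on the lengths used. Lengths do not enter a comparison of 1 gene between the libraries.

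The make-up of the family does not depend on how the libraries are scaled. *Mup20* accounted for 50% of the summed Mup reads in WT (49.7% to 50.4%) and 28.2% in KO (27.8% to 28.5%). *Mup3* accounted for 27.1% in WT (26.8% to 27.4%) and 36.3% in KO (35.9% to 36.7%). The central members together made up 22.5% in WT (22.2% to 22.8%) and 34.2% in KO (33.9% to 34.6%). *Mup11* had the widest difference in share among them, with 5.19% in WT and 10.9% in KO. *Mup7* stood at 10.5% in WT and 13.6% in KO, *Mup17* at 6.29% and 8.94%, and *Mup21* at 0.371% and 1.30%. These intervals did not overlap between the libraries for any of the genes named here.

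**Figure D3:**
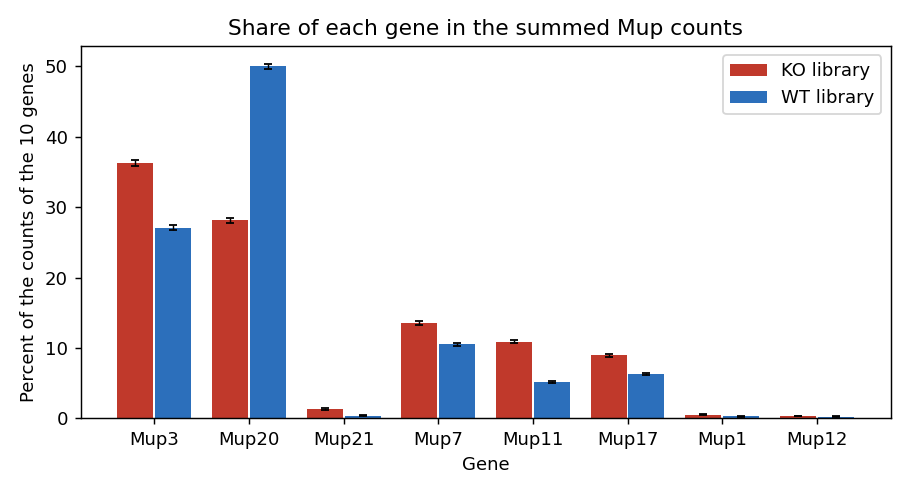
Percent of the summed reads of the 10 genes that fell on each gene, for the KO and WT libraries, with bars starting at 0 and exact 95% binomial intervals that cover counting error only. *Mup20* holds 50% in WT and 28.2% in KO, and the share of every other gene drawn is larger in KO; *Mup2* and *Mup10* are too small to draw.

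Ratios within a library showed the same. *Mup20* had 1.85 reads for each *Mup3* read in WT and 0.776 in KO, a difference of -1.25 on the log2 scale (-1.29 to -1.21). Against *Mup7* the ratio was 4.75 in WT and 2.07 in KO. Against *Mup17* it was 7.95 in WT and 3.15 in KO. Against *Mup11* it was 9.63 in WT and 2.58 in KO, a difference of -1.90 (-1.96 to -1.84). Among the near-identical central genes, *Mup17* kept closer to *Mup7* (0.598 in WT and 0.658 in KO) than *Mup11* did (0.494 in WT and 0.803 in KO), and how the reads of these 3 were divided was not tested.

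Rows of the family outside the 10 genes bear on that division. The table held 49 rows named Mup, 47 of them on chromosome 4, of which 21 were protein-coding and 28 were pseudogenes by name. The 21 further rows with reads, 9 of them protein-coding, had 7851 reads in KO and 8219 in WT. *Mup14*, a central copy, took most of these, with 6019 reads in KO and 5971 in WT, a log2 fold change of 0.60 (0.55 to 0.66). *Mup16* had 567 and 430 (0.99), *Mup18* had 286 and 115 (1.90), and *Mup13* had 20 and 10 (1.54). *Mup15*, of whose 51-base words 0.0% are its own, was lower in KO, with 335 reads against 610 in WT and a log2 fold change of -0.27 (-0.47 to -0.08). *Mup6* had 50 and 53 reads, *Mup8* had 42 and 43, *Mup9* had 34 and 53, and *Mup19* had 6 and 0. *Mup4* and *Mup5* had 0 in both libraries.

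The pseudogene *Mup-ps19*, which matches part of *Mup20* without a mismatch, was also lower in KO. It had 400 reads in KO and 882 in WT, a log2 fold change of -0.55 (-0.72 to -0.38). Of its 51-base words 89.6% are shared with *Mup20*, so its reads are not a separate observation. With its reads added, *Mup20* had 19212 reads in KO and 36872 in WT, a log2 fold change of -0.35 (-0.37 to -0.32) in place of -0.34. *Mup-ps12* had 17 and 2 reads, *Mup-ps13* had 18 and 5, *Mup-ps16* had 16 and 9, and *Mup-ps22*, on chromosome 11, had 25 and 28. The other 7 pseudogene rows with reads, *Mup-ps1*, *Mup-ps2*, *Mup-ps6*, *Mup-ps8*, *Mup-ps14*, *Mup-ps17* and *Mup-ps23*, had at most 4 reads in a library. A wider set of 14 central copies held the central members and others with at least 10 counts, so *Mup19* was left out. These 14 had 30182 reads in KO and 23428 in WT. Their log2 fold change was 0.96 (0.93 to 0.98), against 1.09 for the members alone. Over all 49 rows the log2 fold change was 0.49, the same as for the 10 genes. The cluster also held 5 genes of other names, of which *Gm12909* had 440 reads in KO and 360 in WT and *Gm13775* had 105 and 43.

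**Figure D4:**
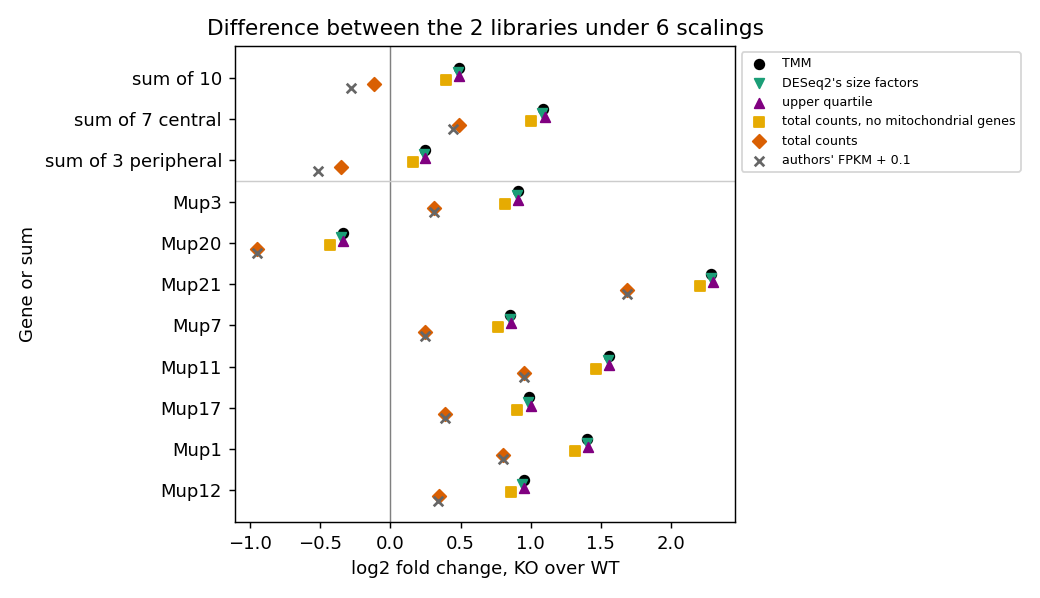
Log2 fold change of KO over WT for the 3 sums and the 8 genes with at least 10 counts, with 1 mark for each of 6 scalings. The marks of *Mup20* lie below 0 and those of the other 7 genes above 0 with each scaling, whereas the sum of the 10 runs from -0.28 (FPKM) to 0.49 (TMM).

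RefSeq promoters (GRCm38.p6, 250 bases before to 50 after the annotated start) were at hand for 7 of the 10 genes. None was at hand for *Mup1*, *Mup12* and *Mup20*. These 7 are therefore not the 7 members that were higher in KO. They include *Mup2* and *Mup10*, which had fewer than 10 counts, and lack *Mup20*, which was lower in KO. No promoter feature can thus be set against direction here. The promoters of *Mup11*, *Mup3* and *Mup21* stand for a central gene and the paralog pair. They lie at chr4:60662346-60662645, chr4:62087268-62087567 and chr4:62150792-62151091 on the minus strand. Capitals mark TATATAA, the TATA box letters.
Mup11: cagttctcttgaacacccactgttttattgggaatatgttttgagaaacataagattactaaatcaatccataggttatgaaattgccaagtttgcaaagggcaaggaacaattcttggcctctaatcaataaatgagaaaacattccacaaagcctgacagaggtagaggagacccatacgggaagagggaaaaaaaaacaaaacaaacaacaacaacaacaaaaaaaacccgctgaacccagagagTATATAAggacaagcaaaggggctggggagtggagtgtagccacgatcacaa
Mup3: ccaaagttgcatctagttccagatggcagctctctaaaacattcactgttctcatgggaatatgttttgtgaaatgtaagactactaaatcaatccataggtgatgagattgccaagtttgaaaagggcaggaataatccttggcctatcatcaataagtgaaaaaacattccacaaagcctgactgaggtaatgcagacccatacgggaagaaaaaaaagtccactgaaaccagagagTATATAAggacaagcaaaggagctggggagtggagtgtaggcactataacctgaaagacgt
Mup21: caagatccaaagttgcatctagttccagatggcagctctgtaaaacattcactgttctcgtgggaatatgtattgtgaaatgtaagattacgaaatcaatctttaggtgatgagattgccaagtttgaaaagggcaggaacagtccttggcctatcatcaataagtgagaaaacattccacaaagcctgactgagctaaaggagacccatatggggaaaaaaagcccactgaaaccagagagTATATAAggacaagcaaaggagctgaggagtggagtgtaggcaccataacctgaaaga
TATATAA, sought on both strands, was in 6 of the 7 promoters and in 3.24% of the 32851 RefSeq promoters of the same length. It began at -2 from the annotated start in *Mup11*, -11 in *Mup3* and -8 in *Mup21*, so the annotated starts are offset against each other. The window of *Mup7* did not hold it, and bases beyond that window were not searched. The letters TTCNNNGAA, the core of a STAT5 site, were in 0 of the 7 windows and in 8.30% of all promoters. Bases beyond the windows were not searched, so STAT5 sites elsewhere are not addressed. The 7 windows are related copies, so neither count stands for 7 independent promoters. The promoters of *Mup11* and *Mup17* were 99.6% identical over 276 aligned bases, those of *Mup3* and *Mup21* 93.9% over 294, and those of *Mup11* and *Mup3* 87.5% over 265.

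Genes listed as regulators of Mup transcription lay on both sides of 0. The list mixes activators, repressors and genes that STAT5 itself induces, so its median does not give 1 direction of control. Of 13 listed regulators, 12 had at least 10 counts, 3 were at least 2-fold higher in KO and 1 at least 2-fold lower, with a median of 0.15, beside 9.46% and 9.94% of all genes and a median of 0.00. With total counts 3 were higher and 3 lower by that limit, and the median was -0.45. The lower 3 were then *Bcl6*, *Zhx2* and *Thrb*. The higher 3 on the TMM scale included *Cish*, with 102 reads in KO and 33 in WT, and *Socs2*, with 315 and 137, which encode feedback inhibitors of growth hormone signaling that STAT5 itself induces. Their log2 fold changes were 2.20 (1.64 to 2.83) and 1.79 (1.5 to 2.09). *Onecut1*, a liver transcription factor, had 182 and 67 reads (2.02). *Bcl6*, a repressor that binds STAT5 sites, had 219 reads in KO and 705 in WT, a log2 fold change of -1.09 (-1.32 to -0.87).

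The receptor and its transducers differed less. *Ghr*, the growth hormone receptor, had 1981 reads in KO and 2077 in WT, a log2 fold change of 0.52 (0.43 to 0.61). *Jak2*, its kinase, stood at 0.70 with 112 and 104 reads. *Stat5b* stood at 0.16 with 331 and 446 reads, and *Stat5a* at -0.26 with 83 and 150 reads. *Hnf4a*, which maintains hepatocyte identity, stood at 0.05 with 3168 and 4601 reads, and *Nr3c1*, the glucocorticoid receptor, at 0.13. *Thrb*, a thyroid hormone receptor, stood at -0.61. *Zhx2*, a repressor of fetal liver genes that also affects Mup expression, had 15 and 45 reads (-0.97), and *Cux2*, a female-biased factor, had 4 and 5. Scaled by total counts, *Ghr* stood at -0.08, *Stat5b* at -0.44, *Nr3c1* at -0.47 and *Hnf4a* at -0.55, so their direction turned with the scaling, while *Cish* at 1.60, *Socs2* at 1.19 and *Bcl6* at -1.69 kept theirs.

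Male-biased liver genes centred above 0 and female-biased ones below it. Of 12 male-biased genes, all with at least 10 counts, 6 were at least 2-fold higher in KO and 0 at least 2-fold lower, with a median of 1.08. *Hsd3b5*, a steroid-metabolizing enzyme of male liver, had 420 reads in KO and 103 in WT, a log2 fold change of 2.61 (2.31 to 2.95). *Cyp7b1*, an oxysterol hydroxylase, had 1196 and 559 (1.69), and *Selenbp2* had 25488 and 16429 (1.23). *Cyp2d9* had 8164 and 9379 (0.39), and *Gstp1* had 7518 and 12626 (-0.16), so that the range of the list was -0.16 to 2.61. With total counts 2 of the 12 were at least 2-fold higher, *Hsd3b5* and *Cyp7b1*, and the median was 0.48, above the -0.60 of all genes.

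Female-biased genes were scarce in both libraries, with 128 reads in KO and 373 in WT over all 17. Of the 7 with at least 10 counts, 0 were at least 2-fold higher in KO and 4 were at least 2-fold lower, with a median of -1.34. With counts under 3 raised to the floor of 3 the median was -1.36, and with total counts it was -1.94, with 5 at least 2-fold lower. The 4 were *Cyp2c69* (22 reads in KO and 85 in WT), *Ntrk2* (14 and 63), *Acot3* (3 and 34) and *Cyp2b10* (0 and 33). *Cyp2b10* was 7.30-fold lower with KO set to the floor of 3 counts. The upper end of its counting interval was -2.49 on the log2 scale, a smaller difference. All 4 genes of the Y chromosome examined had reads in both libraries, with 787 in KO and 885 in WT. Of all genes, 9.46% were at least 2-fold higher and 9.94% at least 2-fold lower. Beside these, 6 of 12 male-biased, 4 of 7 female-biased, 3 of 8 Mup genes and 3 of 12 regulators are counts in small lists. No test stands behind the list counts, and the lists were chosen with earlier results of these data known.

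Genes for other secreted liver proteins centred near 0. Of the 9 other lipocalin genes with at least 10 counts, 0 were 2-fold higher and 0 were 2-fold lower, with a median of -0.15. With total counts 2 were at least 2-fold lower, and the median was -0.75. *Rbp4*, the retinol carrier of plasma, had 9758 reads in KO and 23245 in WT (-0.66), *Ambp* had 36907 and 65247 (-0.23), and *Orm1* had 33744 and 43736 (0.22). Of 20 genes for abundant plasma proteins, 1 was at least 2-fold higher (*Serpina1e*, 60218 and 28206 reads, 1.69) and 1 at least 2-fold lower (*Apoe*, 25062 and 114246 reads, -1.60), with a median of 0.05. With total counts 1 was at least 2-fold higher and 5 at least 2-fold lower, and the median was -0.55. *Serpina1e* is one of several close paralogs, among which reads may also be divided. *Alb*, the gene for albumin, stood at -0.07.

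**Figure D5:**
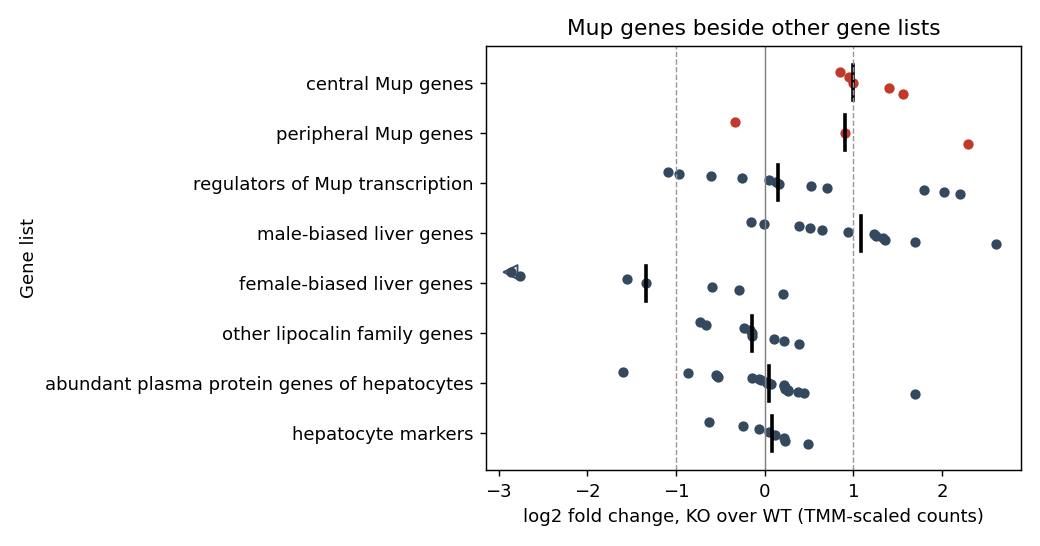
Log2 fold change of KO over WT (TMM-scaled counts) for each gene with at least 10 counts in 8 gene lists, with a black bar at the median of each list and dashed lines at 2-fold. Mup genes are red, and the open triangle marks *Cyp2b10*, which has 0 reads in KO and is drawn with KO set to 3 counts. Male-biased genes centre on 1.08, female-biased genes on -1.34, and the 3 lists of other liver genes near 0, all on the TMM scale.

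Hepatocytes make the Mup proteins, and on the TMM scale all 8 of their markers lay within 2-fold, with a median of 0.09. They ran from -0.63 for *Cps1* to 0.49 for *Pck1*. Their sum was 51943 CPM in KO and 51099 CPM in WT, of which *Alb* alone made up 31603 and 33090 CPM. With total counts the median was -0.51, beside -0.60 for all genes, and *Cps1*, of the urea cycle, was at least 2-fold lower at -1.23. The sums for stellate and endothelial cells were lower in KO, at 72.2 against 106 CPM for 7 stellate cell markers and 64.9 against 80.1 CPM for 6 endothelial cell markers. The 6 Kupffer cell and macrophage markers had 1084 reads in KO and 2208 in WT, with a median log2 fold change of -0.58. On the TMM scale the sums were 164 CPM in KO and 125 CPM in WT for 5 cholangiocyte markers. *Spp1* alone made up 152 and 116 CPM of these. The 6 neutrophil and lymphocyte markers summed to 32.0 against 29.6 CPM. Summed unscaled reads were lower in KO for both lists, at 1759 against 2032 and 344 against 480. Single markers with few reads went the other way. *Krt19* (26 reads in KO and 7 in WT) and *Krt7* (15 and 6), 2 of the 5 cholangiocyte markers, were at least 2-fold higher in KO. So was *Cd79a* (12 and 4), 1 of the 3 neutrophil and lymphocyte markers with at least 10 counts. In both lists 0 were at least 2-fold lower, beside 9.46% of all genes higher and 9.94% lower. With total counts the medians of the 2 lists were -0.2 and -0.45. The medians of the stellate, endothelial and Kupffer cell lists were then -1.11, -1.04 and -1.18. Of 3 erythroid markers, *Alas2* was higher in KO, at 49.7 against 21.4 CPM, while *Hba-a1* stood at 17.5 against 25.8 CPM and *Hbb-bs* at 5.95 against 12.3 CPM, with a median of -0.56. *Ly6g*, of neutrophils, was at 0 in both libraries. The part of cell composition and of the mitochondrial reads in the Mup values was not tested.

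The Mup sum was last set beside other abundant genes. Of 170 nuclear protein-coding genes that reached 10000 counts, Mup genes left out, 24 (14.1%) had a larger log2 fold change than the Mup sum, as had 22.7% of all 13561 genes. Of the 170, 5 were at least 2-fold higher and 10 at least 2-fold lower. The 5 genes nearest to the sum, by log2 fold change over these 2 libraries, were *Pck1*, *C9*, *Proc*, *Hmgcs1* and *Fah*, at 0.48 to 0.50. *Pck1* encodes a gluconeogenic enzyme, *C9* a complement protein, *Proc* the anticoagulant protein C, *Hmgcs1* an enzyme of cholesterol synthesis and *Fah* an enzyme of tyrosine breakdown. With 2 libraries, likeness rests on a single difference.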

How the data were processed

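Poly(A) RNA-seq of mouse liver was analysed with 1 library per genotype. The labels give genotype and PH, and the day was taken from the study's text. The authors deposited raw read counts per gene and FPKM, which they scaled by total counts. The submitters' processing notes name HISAT2 2.0.4, StringTie and edgeR, and the build hg38, although the identifiers are of mouse. Of 34745 identifiers, 34267 are in GENCODE M21 (GRCm38), and 27686 have the same coordinates there. *Mir182* was not analysed here, so the labels were not checked on the targeted gene.

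Counts were scaled by TMM (edgeR 4.0.16, R 4.3.3) over genes with at least 10 counts. Log2 fold changes used a prior count of 0.5, with exact 95% binomial intervals. Genes were counted as higher or lower at 2-fold, with no test. Steps were tested on simulated data. These did not copy the unequal mitochondrial shares of the 2 libraries, so they do not bear on the choice of scaling. Python 3.11.15, pandas 2.3.3, numpy 2.4.6, scipy 1.17.1, Biopython 1.88 and matplotlib 3.10.9 were used. Intervals of lengthwise levels are exact Poisson intervals, and those of ratios between members are normal approximations on the log scale. The main transcript of a gene was the GENCODE transcript with the coding length nearest to the usual one of the family.

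Alternatives were total counts, total counts without mitochondrial genes or Mup rows, DESeq2 1.42.0 size factors, upper quartile, a prior count of 5, FPKM plus 0.1, and minimums of 1 and 50 counts. The members and gene lists were chosen with earlier results of these data known, and 2 list genes are not reported here. Named genes are the 10 members, every other Mup row with a count, members of the lists, and the 5 abundant genes nearest to the Mup sum.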

Additional observations from a re-analysis of the deposited data

How the results depend on the processing

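No paired analysis was possible because there was 1 library for KO and 1 for WT, and for the same reason no replicate could be left out. Scaling by DESeq2's size factors or the upper quartile and a prior count of 5 kept all 3 sums within their counting intervals. The sum of the 10 genes, 0.49 with TMM, was -0.12 with total counts and with total counts without Mup rows, 0.40 without mitochondrial genes and -0.28 with FPKM, whose sum also weights genes by length. Without *Mup20*, the member with the most reads, it was 1.01. The central sum, 1.09, was 0.49 with total counts and without Mup rows, 1.00 without mitochondrial genes and 0.45 with FPKM. It was 0.96 with the 14 central copies. That set was added after seeing the data, as were the sum without *Mup20* and that of *Mup20* with *Mup-ps19*. The peripheral sum, 0.25, was -0.35 with total counts and without Mup rows, 0.16 without mitochondrial genes and -0.52 with FPKM. Members at least 2-fold higher numbered 3 with TMM and 1 with total counts, without Mup rows and with FPKM, which was *Mup21*. None was 2-fold lower with any setting run. Over all genes, 1283 were 2-fold higher and 1348 lower with TMM, 624 and 3605 with total counts, 2289 and 2752 with a minimum of 1 count, and 642 and 766 with a minimum of 50. *Mup2*, with 3 and 4 reads, was the only member whose own direction changed, to -0.37 with total counts and without Mup rows and to -0.26 with FPKM.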
